A study of Mus musculus with 6 samples.

Results

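The 10 genes described here are 5 alpha-tubulins (Tuba1a, Tuba1b, Tuba1c, Tuba4a and Tuba8) and 5 beta-tubulins (Tubb2a, Tubb2b, Tubb4b, Tubb5 and Tubb6) of mouse liver. They were selected by symbol from the 16426 rows of the authors' deposited table, and they were chosen from the tubulin genes with earlier values of the same comparison in view. Their differences are therefore a description. All 10 were among the 14114 rows that entered the authors' adjustment of p, called tested here. Because of how the genes were chosen, nothing is read from this. Whether a gene entered through high values in ly_B alone was not examined.

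Bulk liver RNA was sequenced from 6 male C57/BL mice, 3 labelled as the hepatofibrosis model, given 20% CCl4 for 10 weeks, and 3 labelled as normal controls, given saline. The sample titles call the normal mice "wt" and the CCl4 mice "model". CCl4 is a solvent that hepatocytes turn into reactive radicals. The table sets 3 libraries named ly_A against 3 named ly_B, and no label ties either name to the CCl4 or the normal mice. Differences below are thus between ly_A and ly_B, and an effect of CCl4 is not claimed for any of them. For the same reason the columns of single libraries were not used, and no value per library, spread or read depth is given.

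Alpha- and beta-tubulin form the heterodimer that polymerises into microtubules. In hepatocytes these polymers carry secretory vesicles with plasma proteins and lipoproteins, move endosomes towards the bile canaliculus, and build the mitotic spindle. Mammals hold several genes for each subunit, whose products are nearly alike in the folded body and differ most in the acidic carboxy-terminal tail. That tail binds many motors and carries glutamate chains and, in most alpha-tubulins, a removable tyrosine. Cells also hold tubulin messages in check: when free heterodimer is plentiful, the factor TTC5 recognises the start of a tubulin chain as it leaves the ribosome, and the message is degraded.

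The start of the coding sequence is shown because it is the stretch whose product that control reads. It was taken from the GENCODE M21 transcript with the longest coding sequence, for the 9 members listed. Tubb6 is not shown.
Tuba1a: atgcgtgagtgc
Tuba1b: atgcgtgagtgc
Tuba1c: atgcgtgagtgc
Tuba4a: atgcgcgagtgc
Tuba8: atgagggaatgc
Tubb2a: atgcgcgagatc
Tubb2b: atgcgagagatc
Tubb4b: atgagggagatc
Tubb5: atgagggaaatc
The 3 Tuba1 genes share the same first 12 coding bases, whereas the other members shown differ from them and from each other in bases. The encoded amino acids are the same within each class. They are Met-Arg-Glu-Cys in each alpha-tubulin and Met-Arg-Glu-Ile in each beta-tubulin shown.

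The ends of the coding sequences of Tubb2a and Tubb2b, the closest pair of beta-tubulins, are shown because they encode the tail. Capitals mark the bases that differ within the pair, in the last 60 coding bases with the stop codon.
Tubb2a: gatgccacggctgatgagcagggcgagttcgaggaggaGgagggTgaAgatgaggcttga
Tubb2b: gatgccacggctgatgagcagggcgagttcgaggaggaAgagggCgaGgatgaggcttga
Tubb2a and Tubb2b differed at 3 of these 60 bases. None of the 3 changes the encoded amino acid, so this stretch of the tail is the same in both.

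All 10 tubulins had a negative log2 fold change of ly_A over ly_B in the authors' deposited table, and 8 of them passed an adjusted p under 0.05 as higher in ly_B. No member was called higher in ly_A, and none had a positive value. Among all tested genes of the authors' deposited table, 18.1% were called higher in ly_A and 17.7% higher in ly_B, together 35.8%. Since earlier values of this contrast were known when the genes were picked, nothing is read from the count of 8 beside that background. At an adjusted p under 0.01 the same 8 of 10 members were called, where 12.7% of tested genes were higher in ly_B. With a difference of at least 2-fold as well, 7 members were called, where 10.9% of tested genes were higher in ly_A and 7.85% higher in ly_B. In whole liver, fewer cells of a type and less RNA per cell cannot be told apart.

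The median log2 fold change of the 10 tubulins was -1.33 in the authors' deposited table, against 0.07 over all tested genes. The 5 beta-tubulins lay between -3.05 and -1.32, with a median of -1.89, in the authors' deposited table. The 5 alpha-tubulins lay between -1.35 and -0.37, with a median of -0.70. Among the 10, all 5 beta-tubulins and 3 of the 5 alpha-tubulins were called. The tested beta-tubulins outside the 10, Tubb3 at -3.71 and Tubb4a at 1.06, were not called in the authors' deposited table. Members were picked with earlier values of this comparison in view, so nothing is read from the contrast of the classes. The difference between the classes was not tested.

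**Figure D1:**
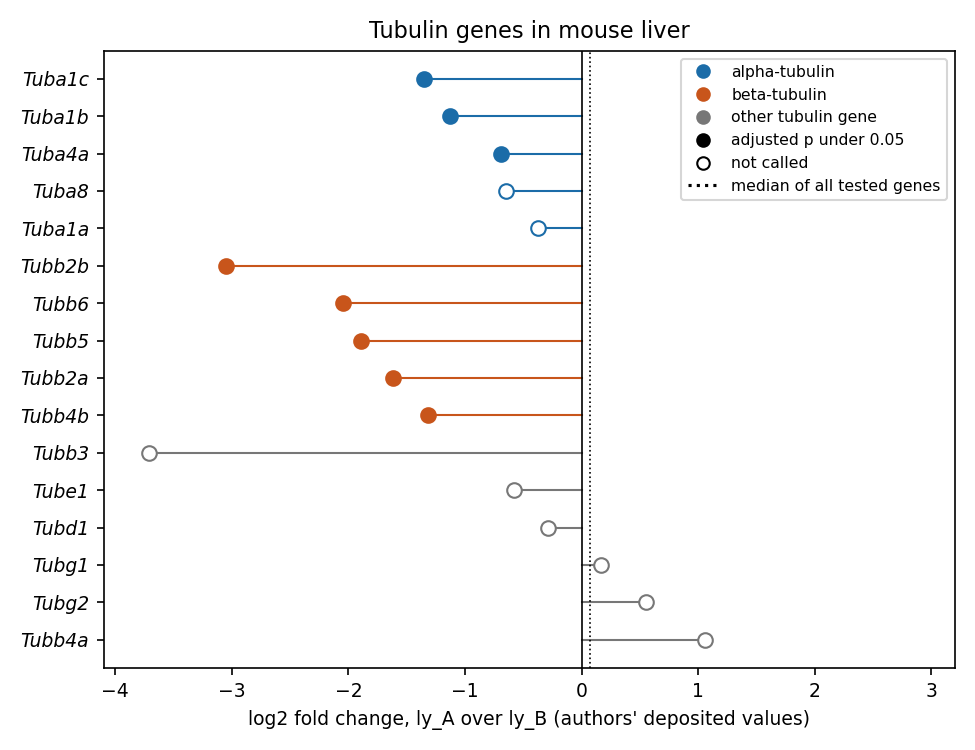
Each point is the log2 fold change of ly_A over ly_B in the authors' deposited table for 1 tubulin gene, on the horizontal axis, with alpha-tubulins on top, beta-tubulins below them and the other tested tubulin genes at the bottom. Filled points passed an adjusted p under 0.05. The 10 members lie left of 0, from -3.05 for Tubb2b to -0.37 for Tuba1a, while Tubg1, Tubg2 and Tubb4a lie right of it.

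Among the alpha-tubulins of the authors' deposited table, Tuba1c, a widely expressed isotype, had the lowest log2 fold change, at -1.35, which is 2.55-fold higher in ly_B (adjusted p = 4.65e-09). Tuba1b, the main alpha-tubulin of many dividing and non-dividing cells, stood at -1.13 in the authors' deposited table, 2.19-fold higher in ly_B (adjusted p = 0.000827). Tuba4a, whose coding sequence lacks the final tyrosine codon that most alpha-tubulins carry, stood at -0.70 in the authors' deposited table, 1.62-fold higher in ly_B (adjusted p = 0.000144). It was the only called member with a difference under 2-fold.

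Neither of the other alpha-tubulins passed in the authors' deposited table. Tuba8, a divergent isotype best known from muscle and testis, had a log2 fold change of -0.65 (adjusted p = 0.214). Its size was close to that of Tuba4a, which passed. Tuba1a, the alpha-tubulin of developing neurons, had the smallest difference of the 10 in the authors' deposited table, at -0.37, with an adjusted p of 0.445. Tuba1a, Tuba1b and Tuba1c all lie on chromosome 15.

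The beta-tubulin with the smallest adjusted p of the 10 members in the authors' deposited table was Tubb6, an isotype of low abundance in most tissues that is known to rise in regenerating muscle. Its log2 fold change was -2.05 in the authors' deposited table, 4.14-fold higher in ly_B (adjusted p = 2.69e-16). By its p, Tubb6 ranked 108 among the 14114 tested genes. Tubb5, the common beta-tubulin of dividing cells, stood at -1.89 in the authors' deposited table, 3.71-fold higher in ly_B (adjusted p = 1.95e-11). Both genes had a log2 fold change that few tested genes lay below, 2.22% for Tubb6 and 2.66% for Tubb5 in the authors' deposited table.

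Tubb4b, a broadly expressed beta-tubulin that is also a main one of cilia, had a log2 fold change of -1.32 in the authors' deposited table, 2.49-fold higher in ly_B (adjusted p = 7.80e-11). Tubb2a, a beta-tubulin abundant in brain, stood at -1.62 in the authors' deposited table, 3.07-fold higher in ly_B (adjusted p = 2.19e-08). Its near copy on the same chromosome 13, Tubb2b, known from developing neurons, had the lowest log2 fold change of the members in the authors' deposited table, at -3.05, or 8.27-fold higher in ly_B (adjusted p = 0.000232). Tubb2b ranked only 1801 by its p, against 495 for Tubb2a, although its log2 fold change was larger in size. The reads behind each gene were not examined, so the fitted fold of Tubb2b is not tied to a measured level.

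**Figure D2:**
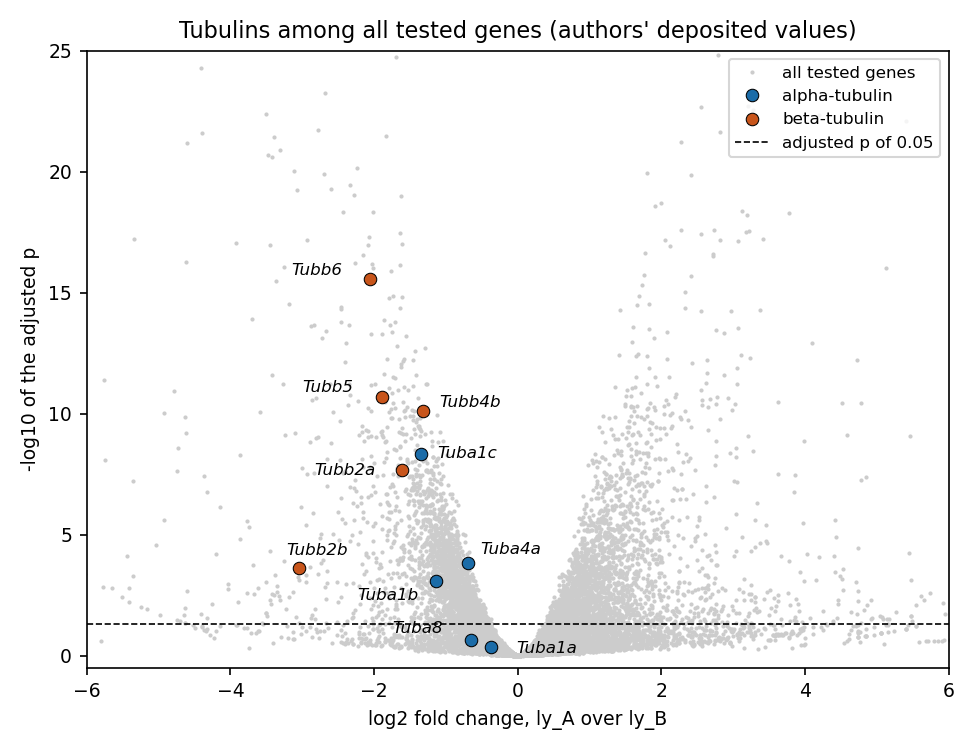
Each point is a tested gene of the authors' deposited table, with the log2 fold change of ly_A over ly_B on the horizontal axis and -log10 of the adjusted p on the vertical axis; 79 tested genes lie outside the axes. The alpha-tubulins are blue and the beta-tubulins orange. Tubb6 stands highest of the members, and Tuba8 and Tuba1a lie under the dashed line at an adjusted p of 0.05.

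The members are close copies of each other, which bears on how far single values can be read. Over the coding sequence, alpha-tubulins were 79.2% to 98.3% identical to each other and beta-tubulins 80.2% to 96.5%, whereas an alpha- and a beta-tubulin shared 54.3% to 57.7% of aligned positions. The closest pairs were Tuba1a with Tuba1b at 98.3%, Tuba1b with Tuba1c at 97.9%, Tuba1a with Tuba1c at 97.1% and Tubb2a with Tubb2b at 96.5%. Tubb6 was 80.2% identical to Tubb5, its most distant beta-tubulin of the 4.

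**Figure D3:**
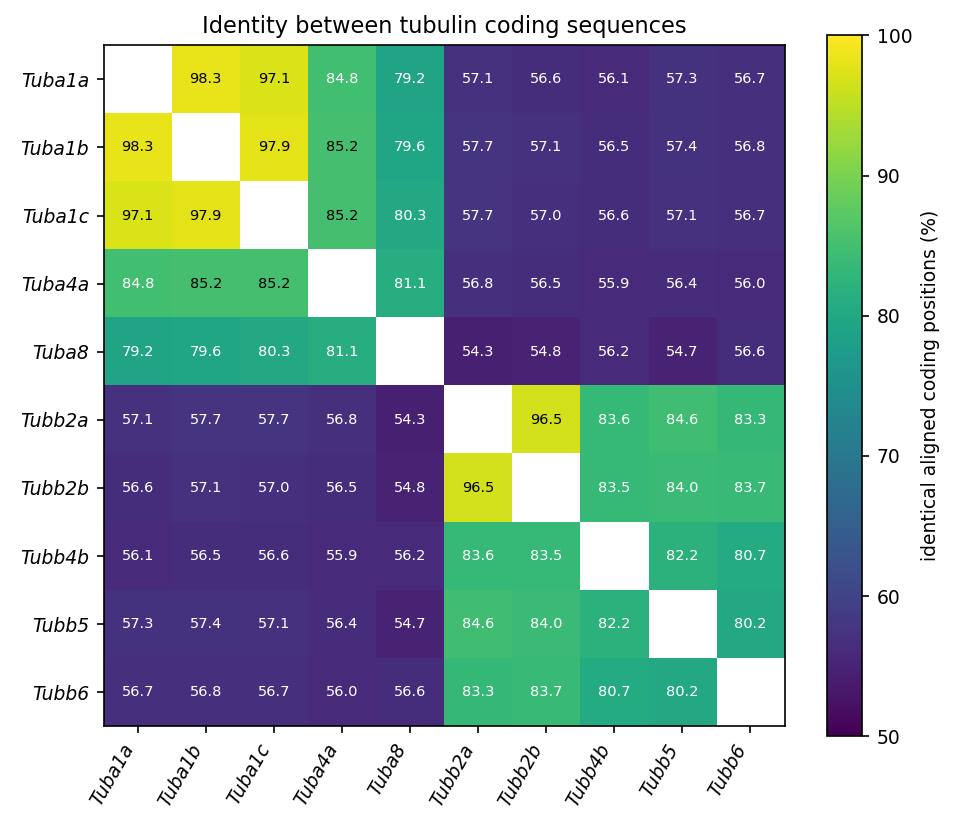
Each cell gives the percentage of aligned positions that are identical between the coding sequences of 2 members, from GENCODE M21. The Tuba1 block and the pair of Tubb2a and Tubb2b lie at 96.5% or above, and pairs of an alpha- and a beta-tubulin at 57.7% or below.

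A read can be assigned to 1 gene only where its sequence is found in no other. Of the 100-base windows of each member's transcript, 69.5% of Tuba1b, 65.1% of Tuba1a and 53.4% of Tuba1c also occurred, letter for letter, in an annotated transcript of another gene. The share was 36.9% for Tubb2a, 27.7% for Tubb2b and 29.2% for Tubb4b, the last mostly with the pseudogene Tubb4b-ps1. Tuba4a, Tuba8, Tubb5 and Tubb6 had 0 shared windows of 100 bases, out of 2741, 2164, 2550 and 1659 windows. With 50-base windows, the shares were 1.11% for Tuba4a, 0.181% for Tuba8 and 0.115% for Tubb5, and Tubb6 again shared 0 windows. How the authors treated reads that match several genes is not given in the sources used here, so the values of the 3 Tuba1 genes, of Tubb2a and Tubb2b, and of Tubb4b are uncertain as single genes.

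**Figure D4:**
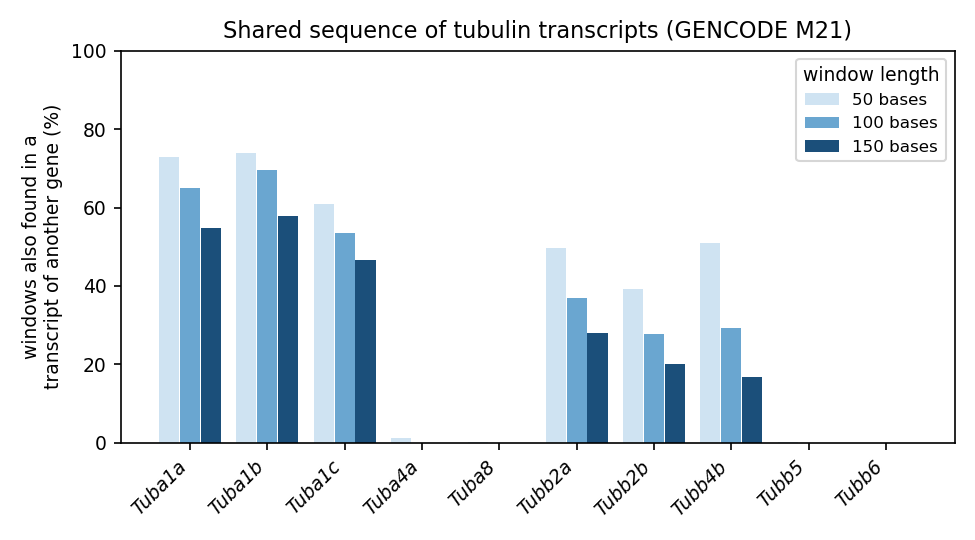
Bars give, for each member, the percentage of windows of 50, 100 and 150 bases of its transcript that also occur in a GENCODE M21 transcript of another gene. The 3 Tuba1 genes stand highest at each length, and Tuba4a, Tuba8, Tubb5 and Tubb6 are at or near 0.

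Promoter sequence was at hand for 8 of the 10 members in the RefSeq table of build GRCm38.p6, which is another build than the mm9 named in the submitters' processing notes. It spans 250 bases before and 50 bases after the start. The promoters of Tubb5, Tubb4b and Tubb2a are shown as those of called beta-tubulins, and that of Tuba1a as one of a member that was not called. Capitals mark matches on either strand to the CCAAT box, the GC box (searched as GGGCGG), the TATA box (searched as TATAAA) and the cyclic AMP response element (searched as TGACGTCA). They lie at chr17:35838252-35838551, chr2:25224653-25224952, chr13:34077959-34078258 and chr15:98953452-98953751, all on the minus strand, and are written in the direction of the gene.
Tubb5: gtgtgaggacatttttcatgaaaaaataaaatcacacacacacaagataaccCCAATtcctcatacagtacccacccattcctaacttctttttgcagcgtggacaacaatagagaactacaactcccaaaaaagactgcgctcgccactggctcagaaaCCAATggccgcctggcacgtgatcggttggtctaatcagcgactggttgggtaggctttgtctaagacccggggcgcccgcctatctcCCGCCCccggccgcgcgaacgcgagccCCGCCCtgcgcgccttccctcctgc
Tubb4b: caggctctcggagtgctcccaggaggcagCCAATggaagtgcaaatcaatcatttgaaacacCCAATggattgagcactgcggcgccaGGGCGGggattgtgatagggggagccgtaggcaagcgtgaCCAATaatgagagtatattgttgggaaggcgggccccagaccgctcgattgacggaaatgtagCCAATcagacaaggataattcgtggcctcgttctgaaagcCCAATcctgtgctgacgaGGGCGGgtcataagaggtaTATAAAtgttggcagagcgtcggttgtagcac
Tubb2a: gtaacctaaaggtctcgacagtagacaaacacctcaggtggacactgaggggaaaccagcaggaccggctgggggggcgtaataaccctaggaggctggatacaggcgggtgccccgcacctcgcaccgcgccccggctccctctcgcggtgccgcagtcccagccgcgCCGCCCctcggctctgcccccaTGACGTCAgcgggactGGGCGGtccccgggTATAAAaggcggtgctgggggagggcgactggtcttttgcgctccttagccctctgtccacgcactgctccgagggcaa
Tuba1a: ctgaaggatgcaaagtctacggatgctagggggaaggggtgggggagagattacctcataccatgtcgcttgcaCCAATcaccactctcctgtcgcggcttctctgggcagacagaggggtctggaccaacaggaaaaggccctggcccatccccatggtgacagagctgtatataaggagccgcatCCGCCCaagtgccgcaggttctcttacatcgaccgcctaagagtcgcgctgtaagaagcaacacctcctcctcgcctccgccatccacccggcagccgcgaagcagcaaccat
The Tubb4b promoter held 5 matches to CCAAT and the Tubb5 promoter 2. The Tubb2a promoter held the single match to TGACGTCA among the 8, beginning 59 bases before the start, and a TATAAA beginning 29 bases before it. Of the 8 members, 4 held CCAAT, 6 held GGGCGG, 2 held TATAAA and 1 held TGACGTCA. The TATAAA of Tubb4b lay after the start, unlike that of Tubb2a. Among all 32851 promoters of that length, 37.4% held CCAAT, 35.7% held GGGCGG, 13.6% held TATAAA and 1.79% held TGACGTCA. In the promoters shown, no match overlapped a match to another motif. Such a match is a description of the letters and not a binding site.

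None of the 6 tested tubulin genes outside the 10 passed an adjusted p under 0.05 in the authors' deposited table. Tubb3, the beta-tubulin of neurons, had a log2 fold change of -3.71 in the authors' deposited table, lower than that of any member, with an adjusted p of 0.111. Tubb4a, another beta-tubulin of the nervous system, stood at 1.06 in the authors' deposited table, with an adjusted p of 0.554. The gamma-tubulins, which nucleate microtubules, stood at 0.16 for Tubg1 (adjusted p = 0.586) and 0.56 for Tubg2 (adjusted p = 0.822) in the authors' deposited table. The centriolar delta- and epsilon-tubulin genes stood at -0.29 for Tubd1 (adjusted p = 0.681) and -0.58 for Tube1 (adjusted p = 0.608) in the authors' deposited table. Tubb1, the beta-tubulin of platelets, stood at 1.83 in the authors' deposited table, with a p of 0.445 and an adjusted p listed as 1. Tuba3a, Tuba3b and Tubal3 were looked up and had no row there.

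Other genes of microtubules and the cytoskeleton were called in both directions. The 10 related lists include the 6 other tubulins above and 20 genes of actins, intermediate filaments and actin-binding proteins. Of their 180 tested genes, 21 were higher in ly_A and 30 in ly_B in the authors' deposited table. These were 11.7% and 16.7%, against 18.1% and 17.7% over all tested genes. The median log2 fold change of the 180 was -0.18. Of 15 tested genes of the other tubulins and the gamma-tubulin ring, which caps and nucleates microtubules, 2 were higher in ly_A and 2 in ly_B in the authors' deposited table. The ring proteins Tubgcp3 at 0.96 and Tubgcp4 at -1.26 differed in opposite directions, and the ring component Mzt2 stood at 1.10, in the authors' deposited table (each at an adjusted p of 0.000317 or less).

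Of 22 tested genes of tubulin folding, which include the chaperonin that folds new tubulin and the cofactors that join the heterodimer, 5 were higher in ly_A and 6 in ly_B in the authors' deposited table, with a median of -0.17. The cofactor-like Tbcel stood at -1.64, the small GTPase Arl2 at 1.22 and the prefoldin subunit Pfdn5 at 1.13 in the authors' deposited table (each at an adjusted p of 0.000223 or less). Of the listed chaperonin genes, Cct2, Cct3 and Cct5 were called higher in ly_B, and Tcp1, Cct4, Cct7 and Cct8 were not called. Of 8 genes of tubulin message control, 1 was higher in ly_A and 1 in ly_B in the authors' deposited table, with a median of -0.09. These were Cnot8 at 0.62 and Cnot1 at -1.10, a deadenylase and the scaffold of the CCR4-NOT complex (adjusted p = 0.00885 and 2.70e-06 in the authors' deposited table). Ttc5 itself stood at 0.51 in the authors' deposited table, with an adjusted p of 0.115.

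Of 19 tested tubulin modifying enzymes, 4 were higher in ly_A and 1 in ly_B in the authors' deposited table, with a median of 0.35. Atat1, the alpha-tubulin acetyltransferase, stood at 1.39 and the glycylase Ttll3 at 1.43, while Ttll12 stood at -1.04, in the authors' deposited table (each at an adjusted p of 0.00872 or less). Of 23 tested microtubule-associated proteins, 3 were higher in ly_A and 2 in ly_B in the authors' deposited table, with a median of -0.19. Tppp3 at 3.78 and Mapt, which encodes tau, at 2.76 were higher in ly_A and the minus-end binding Camsap2 at -1.02 in ly_B in the authors' deposited table (each at an adjusted p of 0.000237 or less).

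Of 15 plus-end tracking proteins, which bind growing microtubule tips, 1 was higher in ly_A and 5 in ly_B in the authors' deposited table, with a median of -0.41. Clip2 at -1.81, the linker Dst at -1.27 and Clasp1 at -1.24 had the largest differences among those called in the authors' deposited table (each at an adjusted p of 2.30e-05 or less). Of 26 tested kinesin motor genes, 2 were higher in ly_A and 4 in ly_B in the authors' deposited table, with a median of -0.20. Kif5a stood at 1.16, the ciliary motor subunit Kif3b at -1.62 and the vesicle motor Kif5b at -1.30 in the authors' deposited table (each at an adjusted p of 0.0259 or less). Of 22 tested genes of cytoplasmic dynein and dynactin, the motor towards minus ends, 2 were higher in ly_A and 5 in ly_B in the authors' deposited table, with a median of -0.34. Dynlrb1 stood at 1.002, Dync1li1 at -1.52 and Dynll1 at -1.03 in the authors' deposited table (each at an adjusted p of 0.00133 or less).

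Of 10 tested depolymerising and severing proteins, 0 were called in the authors' deposited table, for which the submitters' processing notes name DESeq2, and 1 had an unadjusted p under 0.05. This was Kif2a, a depolymerising kinesin, at -0.55 (adjusted p = 0.0603); Fignl1, with the next smallest p in the authors' deposited table, stood at -1.68 (adjusted p = 0.340). The list of actins and intermediate filaments, the other polymers of the cytoskeleton, also held the actin-binding Pfn1, Cfl1, Tmsb4x and Tmsb10. Of its 20 tested genes, 1 was higher in ly_A and 4 in ly_B in the authors' deposited table, with a median of -0.23. The hepatocyte keratins Krt8 at -2.24 and Krt18 at -1.46 and the lamin gene Lmna at -1.56 had the largest differences among those called in the authors' deposited table (each at an adjusted p of 7.28e-12 or less). These counts and medians stand beside the background only, and none was tested as a list.

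**Figure D5:**
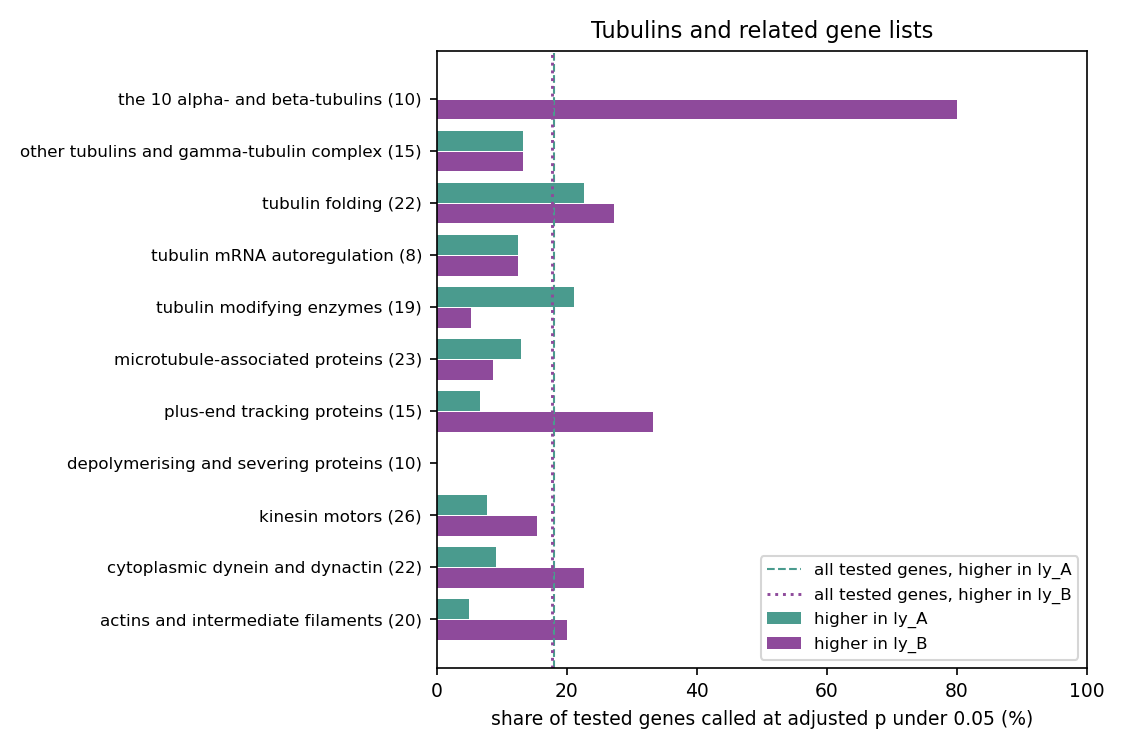
Bars give the percentage of tested genes called higher in ly_A and higher in ly_B at an adjusted p under 0.05 in the authors' deposited table, for the 10 tubulins and 10 related lists, with the number tested in brackets. Dashed and dotted lines mark 18.1% and 17.7%, the shares over all tested genes. The tubulin bar for ly_B reaches 80%, and the longest other bar for ly_B is that of the plus-end tracking proteins.

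Markers of several cell types that liver tissue can hold were called, beside 18.1% of all tested genes higher in ly_A and 17.7% higher in ly_B, and their part in the tubulin differences was not tested. In the authors' deposited table, 10 of 12 endothelial markers and 6 of 9 tested lymphocyte markers were higher in ly_A, with the rest not called. Also in the authors' deposited table, 4 of 9 mesothelial markers and 2 of 11 tested cholangiocyte markers were higher in ly_B, with the rest not called. All 12 hepatocyte markers were in the table and tested. They were split, with 4 of 12 higher in ly_A and 1 in ly_B, as were macrophage markers, with 4 of 13 tested higher in ly_A and 3 in ly_B, in the authors' deposited table. For stellate cell and myofibroblast markers, 1 of 14 tested was higher in ly_A and 4 in ly_B in the authors' deposited table. Of the 14 tested markers of mitotic cells, whose spindles are built of tubulin, only Birc5 was called, higher in ly_A at 2.67 in the authors' deposited table, with an adjusted p of 0.00381. None of 7 tested neutrophil markers and none of 6 tested markers of ciliated cells was called in the authors' deposited table, and 0 and 1 of them had an unadjusted p under 0.05.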

How the data were processed

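RNA was extracted with Trizol and made into libraries with a NEBNext kit, per the labels' protocols. DESeq2 (version not given) and the build mm9 appear in the submitters' processing notes. The aligner, counter, annotation and use of strand are not stated. Log2 fold changes, p-values and adjusted p-values are those the authors deposited, per the file headers, and the name of their comparison was taken to mean ly_A over ly_B. The 18 columns of single libraries match no label. They were seen when the table was opened, but no value of theirs entered a choice or a calculation, so depth is unknown here and the planned count test was not run.

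An adjusted p of exactly 1 stood in 2312 rows, taken as outside the authors' adjustment and not counted as tested. In the other 14114 rows it equalled a Benjamini-Hochberg adjustment of p to within 9.47e-13 (relative). The p-values set each difference against the spread between these libraries only. That spread may be technical, since no label ties a library to a mouse. Members and the 21 lists were chosen with earlier results of these data known. For each related list the text names the 3 called genes with the largest difference, or the 2 with the smallest p where fewer than 2 were called. Ttc5 and the chaperonin genes were added after their values were seen. Markers of 11 cell types, for which the rule also takes genes, are given by counts, apart from Birc5, and 1 of these lists and some coding sequence ends are not reported here. Coding sequences and transcripts are from GENCODE M21, aligned globally with Biopython 1.88. Promoters are from RefSeq, and motifs were picked after those sequences were seen. Adjustments were tested on simulated data (scipy 1.17.1, pandas 2.3.3).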

Additional observations from a re-analysis of the deposited data

How the results depend on the processing

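Under the 5 alternatives the tubulins called higher in ly_B numbered 7 or 8, and none was called higher in ly_A. Among all tested genes, 17.0% were higher in ly_B and 17.4% in ly_A with the Benjamini-Hochberg adjustment over every row. The shares were 11.3% and 10.6% with the Benjamini-Yekutieli adjustment, and 12.7% and 12.3% at an adjusted p under 0.01. With a 2-fold difference as well they were 7.85% and 10.9%, and 9.05% and 10.1% after median centring. Tuba4a was the member lost when a 2-fold difference was also required, with and without median centring. Tuba1a and Tuba8 were not called under any of the 5. Fewer related genes were called under each of the 5, and so were fewer of all tested genes. As deposited, 2499 of all tested genes were higher in ly_B and 2554 in ly_A. With a 2-fold difference as well, these fell to 1108 and 1542. Of the related genes, 51 were called as deposited, 21 higher in ly_A and 30 in ly_B. With a 2-fold difference as well the count of related genes was 30, of which 10 were higher in ly_A. After median centring with that limit it was 28, of which 8 were higher in ly_A. Centring left 20 higher in ly_B with that limit. With the Benjamini-Yekutieli adjustment 13 were higher in ly_A and 26 in ly_B, and at an adjusted p under 0.01 15 were higher in ly_A and 27 in ly_B. With the Benjamini-Hochberg adjustment over every row they were 19 in ly_A and 30 in ly_B. No paired analysis was possible because the columns used carry no replicate number. The columns of single libraries match no label and were not used, so leaving out single libraries, another normalization, another count filter and limits from depth were not run.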
